A study of Homo sapiens with 16 samples.

Results

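The interferon-induced chemokines described here are CXCL9, CXCL10, CXCL11 and CCL5, which were chosen by gene symbol. All 4 were found among the 20314 genes counted in U251 and among the 20626 counted in U343. U251 and U343 are human glioblastoma cell lines. They were transfected for 48 hours with a miR-137 mimic or with a control mimic, each at 25 nM. Both groups received the same transfection reagent. Total RNA was sequenced after removal of ribosomal RNA (RNASeq), and so was RNA recovered with antibodies to poly(A)-binding protein, PABP (RIPSeq). Each of the 4 experiments had 2 control and 2 miR-137 libraries, 16 in all. The library preparation differed between the cell lines, so that cell line and preparation cannot be told apart.

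Chemokines are small secreted proteins that guide the migration of white blood cells. CXCL9, CXCL10 and CXCL11 are close relatives that share the receptor CXCR3, which is found on activated T cells and natural killer cells. CCL5, also called RANTES, has CCR1 and CCR3 among its receptors. Transcription of these genes is driven by interferons through STAT proteins and interferon regulatory factors, and for several of them also by NF-κB. CXCL9 is known as the member that depends most on interferon gamma, whereas CXCL10, CXCL11 and CCL5 also answer to type I interferon and to viral RNA. Glioblastoma cells can make these chemokines, which bear on how many T cells enter a tumour.

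In the deposited tables, which use hg18 coordinates, the CXCR3 ligands lie next to each other on chromosome 4, CXCL9 from 77141647 to 77147665, CXCL10 from 77161295 to 77163674 and CXCL11 from 77173864 to 77176257. CCL5 lies on chromosome 17 from 31222609 to 31231490. The interval of ART3, a gene of the opposite strand, covers all of CXCL10 and CXCL11, and since reads were assigned without a stated use of strand, reads of ART3 could in principle be shared with them. ART3 had between 0 and 12 reads in every library.

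The mature sequence of the transfected microRNA is given first, from RefSeq (build GRCh38.p14), because its seed, bases 2 to 8 in capitals, is what pairs with target mRNAs.
hsa-miR-137-3p: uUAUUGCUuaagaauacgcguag

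Because 3 of the chemokines are neighbours, the 250 bases before their RefSeq starts are also shown (GRCh38.p14, minus strand of chromosome 4). The table of promoters matched 3 of the 4 genes, and CCL5 is named only. Capitals mark matches on either strand to GAAANNGAAA, the core of the element bound by interferon-activated factors, and to GGGANNTTCC or GGGANTTCC, letters of the kind bound by NF-κB. No matches overlapped.
CXCL9, chr4:76007510-76007759: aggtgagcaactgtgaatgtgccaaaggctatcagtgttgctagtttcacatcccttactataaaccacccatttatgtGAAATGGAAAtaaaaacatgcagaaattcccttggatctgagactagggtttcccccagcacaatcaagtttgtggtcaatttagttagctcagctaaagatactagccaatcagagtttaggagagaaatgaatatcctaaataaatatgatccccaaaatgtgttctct
CXCL10, chr4:76023498-76023747: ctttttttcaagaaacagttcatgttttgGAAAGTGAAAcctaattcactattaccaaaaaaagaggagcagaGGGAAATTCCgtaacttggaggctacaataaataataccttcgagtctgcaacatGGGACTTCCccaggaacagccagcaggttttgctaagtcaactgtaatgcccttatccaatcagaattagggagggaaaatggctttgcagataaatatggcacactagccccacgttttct
CXCL11, chr4:76036071-76036320: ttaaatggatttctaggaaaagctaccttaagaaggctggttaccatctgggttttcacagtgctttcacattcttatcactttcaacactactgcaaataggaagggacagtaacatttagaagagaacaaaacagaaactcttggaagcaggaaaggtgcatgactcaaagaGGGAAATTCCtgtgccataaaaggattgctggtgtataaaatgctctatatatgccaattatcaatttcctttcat

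The CXCL10 window held 1 match to each of the 3 motifs. CXCL9 held 1 match to the interferon type and none to the NF-κB types, and CXCL11 held 1 match to the longer NF-κB type only. Of 35116 promoter windows of the same length, 3.02% held GAAANNGAAA, 1.4% held GGGANNTTCC and 1.59% held GGGANTTCC. A match describes the letters of these windows and is not a measured binding site.

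Counted reads per library numbered 10156675 to 18224061 in U251 RNASeq, 22359794 to 30731476 in U251 RIPSeq, 37952273 to 45134766 in U343 RNASeq and 37736206 to 45055184 in U343 RIPSeq. In both lines VIM and CD44, markers of the mesenchymal character of glioma cells, were abundant, as was SOX2. GFAP, a glial filament, had 37 to 537 reads per library in U251 and 127185 to 301017 in U343. Of the other glioma cell markers counted, NES and EGFR had at least 1703 reads in every library. OLIG2 had 0 to 7 reads per library, and S100B 2 to 31 in U251 and 83 to 436 in U343. The 14 immune cell markers counted had 16 to 178 reads in all per library. PTPRC, which all white blood cells express, had 1 to 13 reads per library and CD3D, a T cell receptor subunit, 0 to 9. Control replicates of U251 RIPSeq differed more from each other than those of any other experiment, with a median absolute log2 difference of 0.675 between them over the genes tested, against 0.0746 between the miR-137 replicates. Nothing in the labels says that replicates came from separate cultures, so the p-values below measure only the spread between these libraries.

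One library stood apart for these genes and has to be named before the results. In U343 RNASeq, the library labelled miR-137 replicate 1 held no more reads of any of the 4 chemokines than the controls, whereas miR-137 replicate 2 held many more. For the chemokines, results of that experiment are therefore given for each of these libraries and with replicate 1 left out, and the gene lists are given both ways where their counts differ.

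U251 cells carried almost no chemokine transcripts with the control mimic, and with miR-137 CXCL10, CXCL11 and CCL5 were present in both kinds of library. CXCL10 had 0 and 0 reads in the control libraries of U251 RNASeq and 94 and 144 reads with miR-137. CXCL11 had 1 and 0 reads in the controls and 25 and 33 with miR-137, and CCL5 had 2 and 2 reads and then 79 and 80. Each miR-137 library was above both controls for these genes. The share of all genes separated in this way is not given, here or for the other experiments, so separation only describes these reads. CXCL9, the ligand most tied to interferon gamma, had 0 and 1 reads in the controls and 2 and 4 with miR-137, too few to enter the test.

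Ratios of miR-137 to control used the summed reads and library totals scaled by TMM, with exact (Clopper-Pearson) 95% intervals that cover counting error only. Against a floor of 3 counts over the group, CXCL10 was at least 114-fold higher with miR-137 in U251 RNASeq. The ratio was 83 for CXCL11 with an interval from 14.3 to 3334, 56.9 for CCL5 with one from 21.8 to 211, and 8.59 for CXCL9 with one from 1.04 to 395. In edgeR, which sets the difference against the spread between replicates, the 3 genes tested rose, CCL5 by 5.73 on the log2 scale (standard error 0.39, adjusted p = 6.9e-08), CXCL11 by 6.01 (standard error 0.66, adjusted p = 5.8e-06) and CXCL10 with adjusted p = 9.3e-08. Across all genes tested in this experiment 28.7% were called higher, so that being called was common here. With so few control reads, the 3 genes passed the filter on low counts only through their miR-137 libraries. A call other than higher was hardly open to them, so their number cannot be weighed against this share. By the contingency-table rule of the study turned to rises (odds ratio over 2 and adjusted p under 0.001 in Fisher's exact test for all 4 pairs of libraries), 3 of the 4 were higher, against 6.14% of all genes.

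In U251 RIPSeq, which counts the transcripts bound by PABP, CXCL10 had 4 and 0 reads in the controls and 1567 and 1659 with miR-137. CCL5 went from 6 and 3 reads to 877 and 1099, and CXCL11 from 2 and 1 to 75 and 89. The groups did not overlap for any of these genes. CXCL9 had 9 and 1 reads in the controls and 14 and 9 with miR-137, so that control replicate 1 reached the lower miR-137 library.

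The ratio of miR-137 to control in U251 RIPSeq was 776 for CXCL10 (95% counting interval from 303 to 2849), 211 for CCL5 (from 111 to 462), 52.6 for CXCL11 (from 17.7 to 258) and 2.21 for CXCL9 (from 1.01 to 5.21). In edgeR CXCL10, CXCL11 and CCL5 rose, by 9.49 (standard error 0.88, adjusted p = 0.0321), 5.60 (standard error 0.51, adjusted p = 0.0315) and 7.66 (standard error 0.49, adjusted p = 0.0195) on the log2 scale. These were 3 calls of 4 genes tested, in an experiment in which 0.944% of all genes tested were called higher. The 3 had passed the filter on low counts only through their miR-137 libraries, so their number cannot be weighed against that share. The mirrored rule of the study gave the same number against 3.47% of all genes. Without a filter on low counts CXCL10 missed the threshold (adjusted p = 0.0611 in edgeR). The log2 change of CXCL9 was 1.08 (standard error 1.03, adjusted p = 0.614 in edgeR). It became 3.43 without control replicate 1 (adjusted p = 0.00743 in edgeR), the library that held 9 of the 10 control reads, and 0.25 without control replicate 2 (adjusted p = 0.717 in edgeR).

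The U343 controls held more CXCL10, CXCL11 and CCL5 than the U251 controls, in CPM scaled over the 16 libraries, which was not so for CXCL9 (0.0636 CPM against 0.193 in RIPSeq, 0.0261 against 0.0294 in RNASeq). In the U343 RIPSeq controls CXCL10 had 25 and 14 reads, CXCL11 59 and 68, CCL5 35 and 37 and CXCL9 3 and 2. With miR-137 the counts were 5211 and 7930 for CXCL10, 1921 and 2462 for CXCL11, 9225 and 19015 for CCL5 and 25 and 41 for CXCL9. Every miR-137 library was above every control library for all 4 genes, again without a share of all genes to set beside it.

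The ratio in U343 RIPSeq was 430 for CCL5 (95% counting interval from 341 to 550), 370 for CXCL10 (from 270 to 520), 37.9 for CXCL11 (from 31.7 to 45.5) and 14.5 for CXCL9 (from 5.9 to 46.1). All 4 rose in edgeR, CCL5 by 8.74 (standard error 0.44, adjusted p = 5.6e-06), CXCL10 by 8.52 (standard error 0.30, adjusted p = 1.2e-06), CXCL11 by 5.24 (standard error 0.18, adjusted p = 1.1e-06) and CXCL9 by 3.79 (standard error 0.49, adjusted p = 4.5e-04) on the log2 scale. In this experiment 28.5% of all genes tested were called higher. CXCL9 passed the filter on low counts only through its miR-137 libraries. The mirrored rule of the study also called all 4, against 4.83% of all genes.

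**Figure D1:**
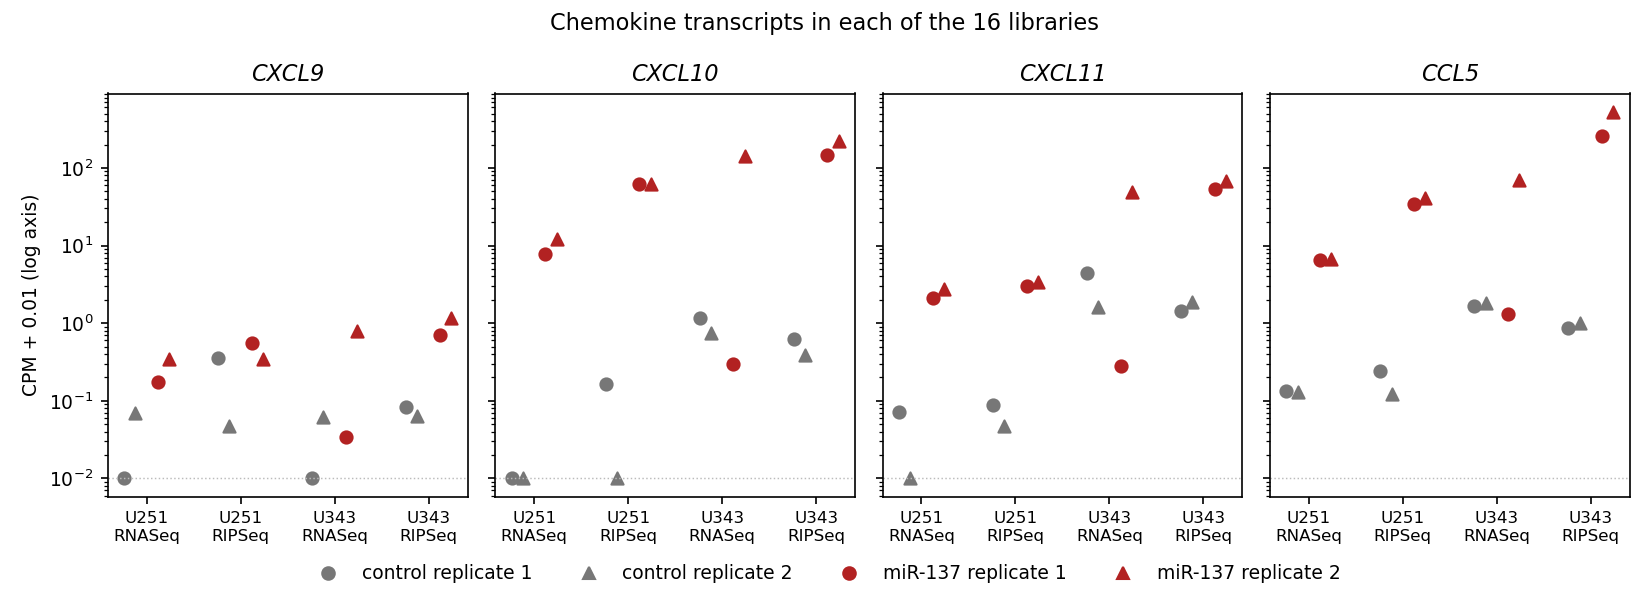
Counts per 1000000 counted reads (CPM, scaled by TMM over the 16 libraries, plus 0.01, log axis) of each chemokine by experiment, with control libraries in grey and miR-137 libraries in red, and circles and triangles for replicates 1 and 2. Points on the dotted line had 0 reads. The red circle of U343 RNASeq, miR-137 replicate 1, lies at or below the controls for CXCL10 (0.291 CPM), CXCL11 (0.267) and CCL5 (1.31), while the other miR-137 libraries lie above the controls for these genes.

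In U343 RNASeq the 2 miR-137 libraries lay on opposite sides of the controls for CXCL10, CXCL11 and CCL5. CXCL10 had 53 and 28 reads in the controls, 12 in miR-137 replicate 1 and 6203 in replicate 2. CXCL11 had 208 and 62 reads in the controls, 11 in replicate 1 and 2108 in replicate 2. CCL5 had 77 and 70 reads in the controls, 54 in replicate 1 and 3033 in replicate 2, and CXCL9 had 0 and 2, then 1 and 34. Replicate 2 was far above both controls for every chemokine, and replicate 1 was below both controls for CXCL10, CXCL11 and CCL5.

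Against both controls together, miR-137 replicate 1 held 0.296 times as many CXCL10 reads (95% counting interval from 0.147 to 0.545), 0.0813 times as many CXCL11 reads (from 0.0401 to 0.148) and 0.733 times as many CCL5 reads (from 0.526 to 1.01). Replicate 2 held 152 times as many CXCL10 reads, 15.5 times as many of CXCL11, 40.9 times as many of CCL5 and 33.7 times as many of CXCL9. With both replicates, edgeR called 0 of the 3 genes tested, with adjusted p = 0.163 for CXCL10, 0.165 for CCL5 and 0.337 for CXCL11, while 8.31% of all genes tested were called higher. None of the 3 had an unadjusted p under 0.05 in edgeR, DESeq2 called 1 of them, and the mirrored rule of the study called 0, against 1.51% of all genes.

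Without miR-137 replicate 1, the log2 changes in edgeR were 7.24 for CXCL10, 5.34 for CCL5, 3.98 for CXCL11 and 4.90 for CXCL9. CXCL9 passed the filter on low counts only through miR-137 replicate 2, so a change other than a rise was hardly open to it. Without replicate 2 instead, CXCL10 fell by 1.73 (adjusted p = 0.0403 in edgeR) and CXCL11 fell by 3.56 (adjusted p = 0.0195 in edgeR), and the log2 change of CCL5 was -0.45 (adjusted p = 0.242 in edgeR). In both fits the lone miR-137 library was assumed to vary like the controls.

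The same library was unlike its partner for the interferon genes and closer to it for genes that were lower with miR-137 elsewhere. IFNB1, which encodes interferon beta, had 1 read in miR-137 replicate 1 and 817 in replicate 2, and the interferon lambda gene IL29 had 0 and 377. IRF7, a regulator of interferon genes, had 301 and 277 reads in the controls, 976 in replicate 1 and 17625 in replicate 2, so that it was above the controls in both but far more so in replicate 2. By comparison, IL1A had 1234 and 1007 reads and IL1B 1169 and 991, both above the controls in either library. Of 683 genes that the rule of the study called lower in U343 RIPSeq and that had at least 50 reads on average in the RNASeq controls, 97.2% were below the control mean in replicate 1 and 100% in replicate 2, with median log2 ratios of -1.15 and -1.29. Of 419 genes chosen in the same way from U251 RNASeq, 68.7% and 80.7% were below, with medians of -0.48 and -0.69. The share of all genes below the control mean in each library is not given, so these shares only describe the chosen genes. What set replicate 1 apart was not tested.

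**Figure D2:**
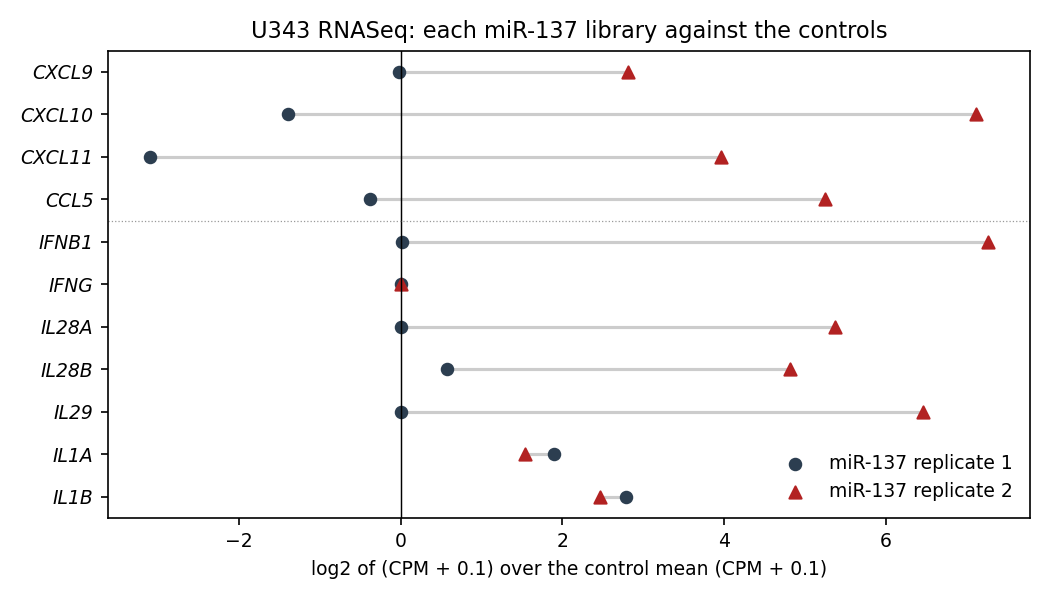
Log2 ratio of each U343 RNASeq miR-137 library to the mean of the controls, on (CPM + 0.1), for the chemokines (top) and cytokines that induce them (bottom), with circles for replicate 1 and triangles for replicate 2. IL1A and IL1B lie to the right of 0 in both libraries, whereas the chemokines and IFNB1 lie far to the right in replicate 2 only.

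**Figure D3:**
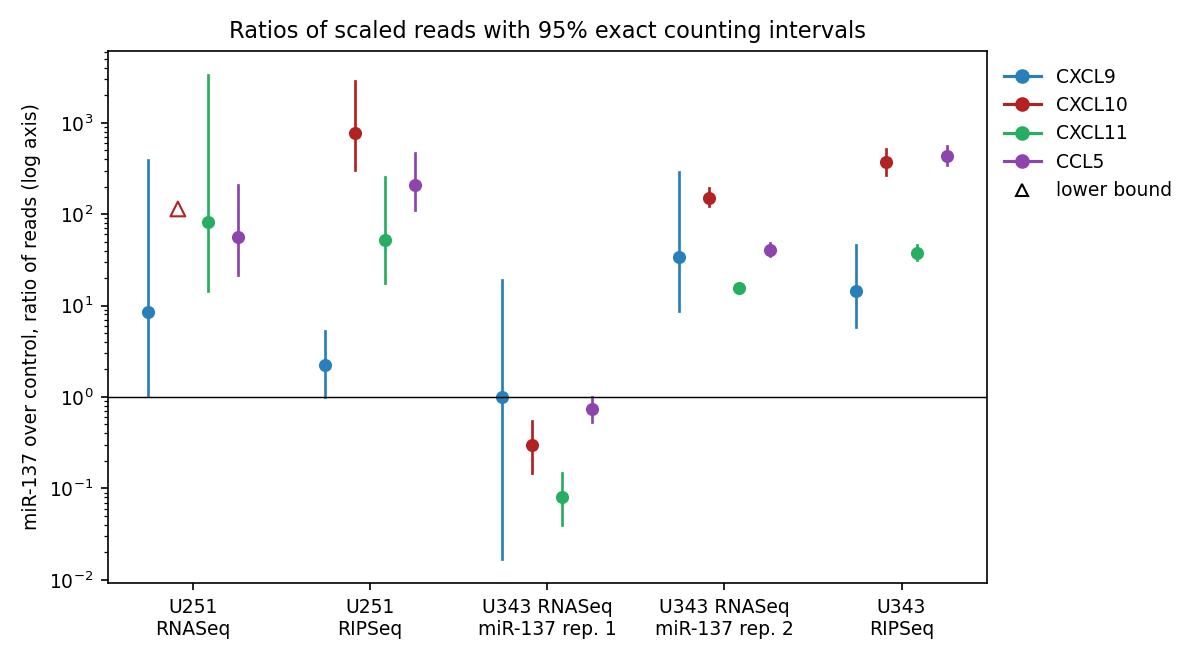
Ratio of TMM-scaled reads, miR-137 over control (log axis), for each chemokine with its exact 95% counting interval, for both miR-137 libraries together or, in U343 RNASeq, for each of them. The open triangle is the lower bound of 114 for CXCL10 in U251 RNASeq, whose controls had 0 reads, and the ratios of CXCL10 and CXCL11 lie below 1 only in U343 RNASeq replicate 1.

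The levels of each gene can also be ordered over the 8 groups of libraries, in CPM scaled by TMM over all 16. For CXCL10 the order ran from U343 RIPSeq with miR-137, at 183 ± 52.6 CPM (SD, n = 2), through U343 RNASeq with miR-137 at 71.6 ± 101 CPM, U251 RIPSeq with miR-137 at 62.2 ± 0.537 CPM and U251 RNASeq with miR-137 at 9.96 ± 3.01 CPM. The controls followed, U343 RNASeq at 0.933 ± 0.286 CPM, U343 RIPSeq at 0.494 ± 0.164 CPM, U251 RIPSeq at 0.0776 ± 0.11 CPM and U251 RNASeq at 0. Neighbours in this order overlapped in 2 places, between U343 RNASeq and U251 RIPSeq with miR-137 and between the U251 controls. Beyond neighbours, the U343 RNASeq libraries with miR-137, at 0.291 and 143 CPM, also spanned U251 RNASeq with miR-137 and the U343 controls. This group spanned the U343 RNASeq controls for CXCL11 and CCL5 as well.

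CCL5 had its highest level in the same group, U343 RIPSeq with miR-137, at 392 ± 191 CPM. It was followed by 38.1 ± 4.85 CPM in U251 RIPSeq, 35.6 ± 48.5 CPM in U343 RNASeq and 6.65 ± 0.095 CPM in U251 RNASeq, all with miR-137, and these neighbours overlapped wherever U343 RNASeq was one of them. The controls ranged from 1.74 ± 0.125 CPM in U343 RNASeq, through 0.927 ± 0.102 CPM in U343 RIPSeq and 0.173 ± 0.0848 CPM in U251 RIPSeq, to 0.12 ± 0.00315 CPM in U251 RNASeq, the last 2 of which overlapped.

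CXCL11 was the member whose U343 controls reached the level of the U251 cells with miR-137. It stood at 60.9 ± 10.3 CPM in U343 RIPSeq and 24.4 ± 34.2 CPM in U343 RNASeq with miR-137. Below these came U251 RIPSeq with miR-137 at 3.16 ± 0.282 CPM, the U343 RNASeq controls at 3.04 ± 2.01 CPM, U251 RNASeq with miR-137 at 2.43 ± 0.486 CPM and the U343 RIPSeq controls at 1.64 ± 0.28 CPM. The U343 RNASeq controls, at 4.45 and 1.62 CPM, spanned the values of both U251 groups with miR-137. The U251 controls were lowest, at 0.0576 ± 0.0283 CPM in RIPSeq and 0.0306 ± 0.0432 CPM in RNASeq.

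CXCL9 remained the lowest in reads of the 4 genes in every miR-137 library. Its levels with miR-137 were 0.917 ± 0.31 CPM in U343 RIPSeq, 0.446 ± 0.151 CPM in U251 RIPSeq, 0.404 ± 0.537 CPM in U343 RNASeq and 0.251 ± 0.12 CPM in U251 RNASeq. Its controls lay between 0.0261 ± 0.0369 CPM in U343 RNASeq and 0.193 ± 0.22 CPM in U251 RIPSeq. Only the gap below U343 RIPSeq with miR-137 separated neighbours in this order without overlap.

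The proportions among the chemokines also differed between libraries. Shares are of reads and not corrected for transcript length, so they are compared between libraries and not between genes. In the 4 U343 control libraries CXCL11 made up 79.7% and 68.9% of the CXCL10 and CXCL11 reads together in RNASeq, and 70.2% and 82.9% in RIPSeq. With miR-137 the share was 26.9% and 23.7% in U343 RIPSeq and 25.4% in RNASeq replicate 2. The lowest 95% binomial (Clopper-Pearson) limit of the controls, 58.3%, lay above the highest limit of these 3 libraries, 28%. RNASeq replicate 1 fell between, at 47.8% with an interval from 26.8% to 69.4%.

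In U251 with miR-137 the same share was 21% and 18.6% in RNASeq and 4.57% and 5.09% in RIPSeq, with intervals of 14.1% to 29.4% and 13.2% to 25.2% against 3.61% to 5.69% and 4.11% to 6.23%. CXCL11 thus made up less of the reads of the pair in PABP-bound RNA than in total RNA in this line. Its own level was not lower there, at 3.16 CPM in RIPSeq and 2.43 CPM in RNASeq with miR-137. CXCL10 stood at 62.2 and 9.96 CPM in the same groups. The controls of U251 had 6 or fewer reads of the pair per library and give no usable share. For CCL5 against CXCL10, the CCL5 share with miR-137 was 45.7% and 35.7% in U251 RNASeq, 35.9% and 39.8% in U251 RIPSeq, 32.8% in U343 RNASeq replicate 2 and 63.9% and 70.6% in U343 RIPSeq. The 4 U343 controls had 58.3% to 72.5%, so that U343 RIPSeq with miR-137 lay within the range of its controls and RNASeq replicate 2 below it. U343 RNASeq replicate 1 was at 81.8% (70.4% to 90.2%), above that range.

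**Figure D4:**
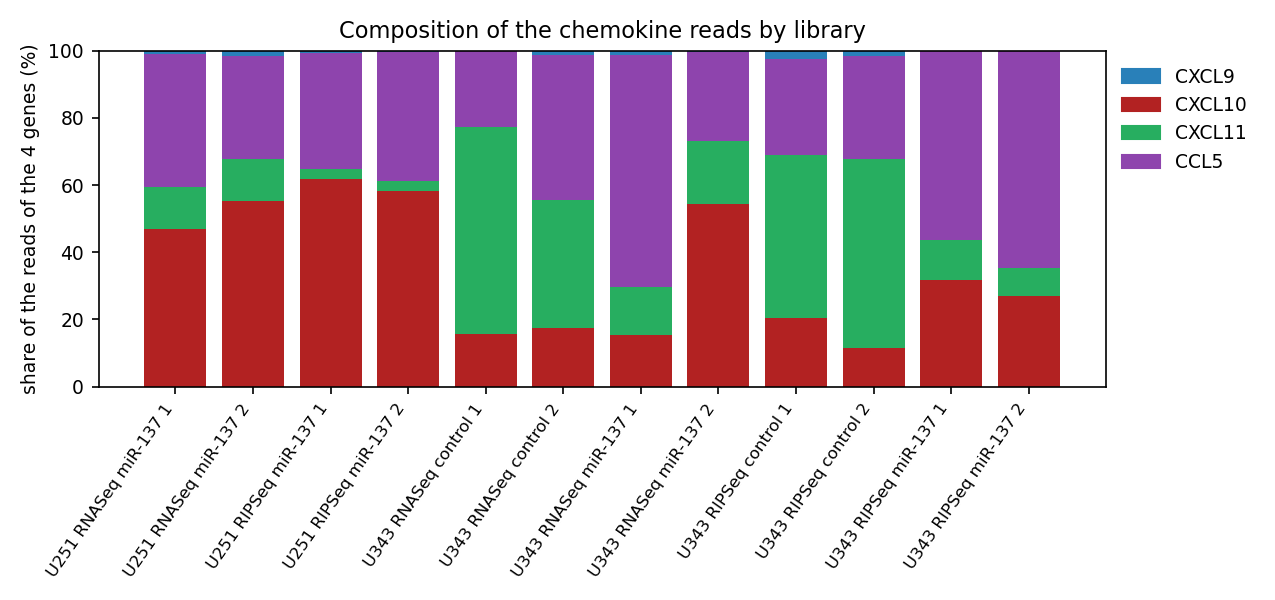
Share of the reads of the 4 chemokines (%) taken by each of them in the 12 libraries with enough reads, one bar per library. The CXCL11 part (green) is largest in the U343 controls, and CXCL9 (blue) is a thin strip or not visible in every bar.

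Whether PABP-bound RNA held more of a chemokine than total RNA was asked within the miR-137 cells. In U251, CXCL10 was higher in RIPSeq than in RNASeq by 2.61 on the log2 scale (standard error 0.15, adjusted p = 3.9e-06 in edgeR) and CCL5 by 2.48 (standard error 0.14, adjusted p = 3.4e-06 in edgeR). CXCL11 differed by 0.35 (standard error 0.22, adjusted p = 0.195 in edgeR). Of all genes tested, 32.4% were called higher in RIPSeq. In U343, 0 of 4 were called by edgeR or by DESeq2, none with an unadjusted p under 0.05 in either, where 9.29% of all genes were called higher. Without RNASeq miR-137 replicate 1, CCL5 was higher in U343 RIPSeq by 2.44 (standard error 0.48, adjusted p = 0.0223 in edgeR), and the differences of CXCL10, CXCL11 and CXCL9 were 0.31, 0.28 and 0.18 with adjusted p from 0.255 to 0.752 in edgeR, where 14.1% of all genes were called higher. Without replicate 2 instead, the log2 differences were 9.27 for CXCL10, 8.22 for CCL5, 7.81 for CXCL11 and 5.06 for CXCL9, all higher in RIPSeq. CXCL9 had 1 read in the RNASeq library left and passed the filter on low counts only through RIPSeq. In each of these fits the RNASeq side was 1 library.

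The response to miR-137 was then compared between assays and between cell lines by interaction terms. In U251, no chemokine of the 3 tested differed in its response between RIPSeq and RNASeq, and 0.134% of all genes did. The largest difference was that of CCL5, 1.86 (standard error 0.75, adjusted p = 0.272 in edgeR). In U343, 0 of 4 were called, against 0.00649% of all genes, and CCL5 again had the largest difference, 4.36 (standard error 2.11, adjusted p = 0.34 in edgeR). These standard errors are large enough that differences of several fold would not have been called.

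Between cell lines, 0 of 4 chemokines differed in their response in RNASeq, where 25.2% of all genes did, with standard errors from 3.11 to 11.96 on the log2 scale. In RIPSeq, 0 of 4 differed, where 3.28% of all genes did. There the response in U343 minus that in U251 was 2.74 for CXCL9 (standard error 1.27, adjusted p = 0.273), 1.11 for CCL5 (0.79, 0.475), -0.34 for CXCL11 (0.53, 0.802) and -0.94 for CXCL10 (0.95, 0.622), in edgeR. In all of the 4 interaction tests no chemokine had an unadjusted p under 0.05 in edgeR. DESeq2 called 0 as well, with 1 unadjusted p under 0.05 in the U343 comparison of assays and 1 in the RIPSeq comparison of cell lines.

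The counts of related genes that follow can be read against the shares of all genes tested. Called higher were 28.7% in U251 RNASeq, 0.944% in U251 RIPSeq, 8.31% in U343 RNASeq and 28.5% in U343 RIPSeq, and called lower were 29.0%, 0.263%, 11.7% and 27.8%. In U343 RNASeq without miR-137 replicate 1 the shares were 19.3% higher and 20.3% lower.

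The receptors of these chemokines were low, with the exception of CXCR7 in U343. CXCR3, the shared receptor of the CXC members, had 24 reads or fewer in every library, and its log2 change in U251 RIPSeq was -1.15 (adjusted p = 0.445 in edgeR). CCR3, one of the CCL5 receptors, had 7 reads or fewer in every library. CCR1, another CCL5 receptor, had 3 and 2 reads in the U343 RIPSeq controls and 36 and 35 with miR-137, a rise of 3.89 (standard error 0.39, adjusted p = 1.2e-04 in edgeR). In U251 RIPSeq CCR1 had 7 and 4 reads and then 43 and 45, with adjusted p = 0.0891 in edgeR. In U343 RNASeq without miR-137 replicate 1, the 2 receptors tested were CCR1 and CXCR7. Replicate 2 lay above the control mean by log2 ratios of 2.51 and 1.17 for them, on (CPM + 0.1). Wherever CCR1 was tested, it had passed the filter on low counts only through miR-137 libraries. A call other than higher was thus hardly open to it.

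CXCR7, a receptor that binds CXCL11 and CXCL12 and mainly removes them, moved differently in the 2 lines. In U251 RNASeq it had 45 and 47 reads in the controls and 0 and 0 with miR-137, at least 21.4-fold lower against the floor of 3 counts over the group (adjusted p = 5.4e-06 in edgeR). In U251 RIPSeq it had 25 and 24 reads and then 35 and 49, and the log2 change of 0.70 did not pass (adjusted p = 0.388 in edgeR). In U343 it was abundant and rose, from 13784 and 11798 reads to 29775 and 29370 in RNASeq (log2 change 1.20, standard error 0.08, adjusted p = 0.00667 in edgeR) and from 10569 and 9634 to 18512 and 15287 in RIPSeq (log2 change 0.88, standard error 0.12, adjusted p = 5.1e-04 in edgeR).

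Among the cytokines that induce these chemokines, 7 of which were counted, genes of type I and type III interferons and of interleukin 1 rose. In U343 RIPSeq IFNB1 had 1 and 0 reads in the controls and 618 and 919 with miR-137, IL29 had 0 and 0 and then 721 and 1585, and IL28A had 0 and 0 and then 217 and 416. Taking 3 counts over the group as the floor, this is at least 843-fold higher for IL29 and at least 231-fold higher for IL28A, and the ratio of IFNB1 was 1686 with a counting interval from 302 to 66624. Of the list, 6 of the 6 genes tested rose in U343 RIPSeq, 3 of 4 in U251 RIPSeq, 1 of 1 in U251 RNASeq and 2 of 2 in U343 RNASeq, against 28.5%, 0.944%, 28.7% and 8.31% of all genes tested there. These were IFNB1, IL28A, IL28B, IL29, IL1A and IL1B in U343 RIPSeq, IFNB1, IL29 and IL1B in U251 RIPSeq, IL1A alone in U251 RNASeq, and IL1A and IL1B in U343 RNASeq. The interferon genes among them had few control reads and passed the filter on low counts only through miR-137 libraries. A call other than higher was hardly open to them, so their number cannot be weighed against the shares of all genes. Without miR-137 replicate 1, 6 of 6 tested rose in U343 RNASeq. In U251 RIPSeq IFNB1 had 1 and 3 reads in the controls and 299 and 276 with miR-137 (adjusted p = 0.0192 in edgeR), and IL29 had 4 and 1 and then 193 and 242. IFNG, the gene of interferon gamma, had between 0 and 6 reads in every library. TNF was not analysed here.

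Of the transcription factors that act on the chemokine genes, 8 of 10 tested rose in U251 RNASeq, 2 of 10 in U251 RIPSeq, 0 of 11 in U343 RNASeq and 9 of 11 in U343 RIPSeq, and none fell. Without miR-137 replicate 1, 6 of 11 rose in U343 RNASeq. Their median log2 changes were 1.69, 0.43, 0.63 and 1.04, against medians of 0.02, -0.02, 0.02 and 0.00 over all genes tested in the same experiments. IRF9, a DNA-binding subunit of the complex that type I interferon activates, rose in 3 experiments, by 4.72 in U251 RNASeq (adjusted p = 1.2e-10), 4.92 in U251 RIPSeq (adjusted p = 0.0192) and 4.13 in U343 RIPSeq (adjusted p = 1.7e-07), all in edgeR. IRF7 rose from 321 and 325 reads to 21842 and 21882 in U343 RIPSeq (log2 change 6.21, standard error 0.12, adjusted p = 1.4e-07 in edgeR). In U251 RIPSeq IRF7 had fewer reads with miR-137, 24 and 13 against 58 and 26 in the controls, and was not called. In U251 RNASeq it had 9 and 7 reads in the controls and 20 and 26 with miR-137.

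Other chemokines did not move as one group. Of the other CXC chemokines, 4 rose and 2 fell among the 6 tested in U251 RNASeq, none of 7 was called in U251 RIPSeq, 1 of 4 fell in U343 RNASeq, and 3 rose and 1 fell among 4 in U343 RIPSeq. In U343 RNASeq without miR-137 replicate 1, 2 rose and 1 fell among 4. CXCL14 fell in 3 experiments, in U343 RIPSeq from 72984 and 89795 reads to 4133 and 6782 (log2 change -3.78, standard error 0.27, adjusted p = 2.5e-05 in edgeR). IL8, the neutrophil attractant CXCL8, rose from 3742 and 4382 reads to 10495 and 12570 in U251 RNASeq (log2 change 2.02, adjusted p = 1.8e-07 in edgeR) and from 11 and 7 to 105 and 200 in U343 RIPSeq (log2 change 4.20, adjusted p = 1.3e-04 in edgeR). CXCL16, whose receptor is CXCR6, rose in U251 RNASeq by 2.41 (adjusted p = 3.4e-06 in edgeR) and in U343 RIPSeq by 2.05 (adjusted p = 1.1e-05 in edgeR).

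Of the CC, CX3C and XC chemokines other than CCL5, 1 rose and 1 fell among 4 tested in U251 RNASeq, 0 of 4 was called in U251 RIPSeq, and 2 of 6 rose in each U343 experiment, with none falling. Without miR-137 replicate 1, CCL2, CCL26, CCL3 and CX3CL1 rose among the 7 tested in U343 RNASeq. CCL3 passed the filter on low counts there only through replicate 2. In edgeR none of the 7 CXC genes and 4 CC genes tested in U251 RIPSeq passed, which is the experiment whose controls differed most. CX3CL1, a membrane-bound attractant of monocytes and T cells, rose in U343 by 1.26 in RNASeq (adjusted p = 0.00829 in edgeR) and by 1.81 in RIPSeq (adjusted p = 1.2e-05 in edgeR), and CCL26, an eosinophil attractant, by 1.39 (adjusted p = 0.029 in edgeR) and 1.24 (adjusted p = 2.4e-04 in edgeR). CCL2, the monocyte attractant, fell in U251 RNASeq from 1593 and 1799 reads to 562 and 655 (log2 change -0.96, standard error 0.13, adjusted p = 3.9e-05 in edgeR). The other chemokine receptors rose in 4 of 9 tested in U343 RIPSeq, all with at most 103 reads per library. Among them CCR7, CCRL1 and CXCR5 passed the filter on low counts only through their miR-137 libraries. CCR10 rose from 60 and 55 reads to 98 and 103 (log2 change 0.94, adjusted p = 0.00335 in edgeR). None was called in the other 3 experiments.

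Of the genes next to the chemokines on the chromosomes, those tested with all libraries had smaller log2 changes than the chemokines called in the same experiment. Of the 8 other genes within 250 kb of the CXC members, 5 were tested in each U251 experiment and 6 in each U343 experiment, and their log2 changes ran from -0.80 to 0.80. SCARB2 and SDAD1 were called higher in U343 RIPSeq, and NUP54 and USO1 lower in U251 RNASeq. Of the 17 other genes within 250 kb of CCL5, 3 to 5 were tested in each experiment, with log2 changes from -1.73 to 0.82. TAF15 was called higher and AP2B1 and RDM1 lower in U251 RNASeq, RDM1 and TAF15 lower in U343 RNASeq, and all 3 lower in U343 RIPSeq. Some neighbours of CCL5 had too few reads for the test in U343 with all libraries. CCL3 had 1 and 1 reads in the RNASeq controls and 4 and 40 with miR-137, and 2 and 0 and then 13 and 6 in RIPSeq. CCL4 had 1 and 1 and then 1 and 12 in RNASeq, and 2 and 0 and then 5 and 10 in RIPSeq. C17orf66, the nearest to CCL5, had 5 and 6 and then 1 and 5 in RNASeq. In RIPSeq it had 4 and 1 and then 9 and 26.

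Markers of the cells themselves moved in some experiments. In U251 RNASeq 5 of 7 glioma cell markers tested were called lower (CD44, GFAP, NES, S100B and VIM), GFAP from 488 and 537 reads to 42 and 37 (log2 change -3.18, adjusted p = 1.3e-08 in edgeR). None of 7 was called in U251 RIPSeq. In U343 RNASeq CD44 and NES were higher and EGFR lower, and in U343 RIPSeq NES was higher and EGFR and GFAP lower.

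Of the immune cell markers, 2 of 2 tested were called higher in U251 RNASeq, CD14 and CSF1R, with a median log2 change of 1.55 against 0.02 over all genes tested. CD14 had 10 and 1 reads in the controls and 15 and 13 with miR-137, and CSF1R 19 and 9 and then 20 and 27. CD14 passed the filter on low counts only through its miR-137 libraries, and CSF1R would not have passed it through its controls alone. Their number and median therefore cannot be weighed against all genes tested. None of 4 tested was called in U251 RIPSeq and none of 5 in U343 RNASeq, while in U343 RIPSeq 1 of 5, ITGAM, fell. ITGAM had passed the filter only through its control libraries. Summed over the 14 markers and scaled, the level was 2.57 and 0.942 CPM in the U251 RNASeq controls and 4.25 and 3.95 with miR-137. The sums were 6.91 and 3.88 against 4.66 and 4.19 CPM in U251 RIPSeq, 3.47 and 3.00 against 2.88 and 2.81 in U343 RNASeq, and 3.10 and 2.97 against 3.04 and 2.63 in U343 RIPSeq, with the controls first. The part of these markers in the chemokine results was not tested.

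Over the 16 libraries, the genes whose log2(CPM + 1) followed the chemokines most closely, among 13773 genes with at least 50 reads on average in their highest group, differed between the 4 chemokines. For CXCL10 they were LOC400759, IDO1, C3AR1, TNFSF10 and HSH2D, with Pearson's r from 0.977 to 0.980. IDO1 degrades tryptophan and TNFSF10 is the death ligand TRAIL. For CCL5 they were CEACAM1 (r = 0.986), FTSJD2, CXCL10 (0.976), IDO1 and BATF2, and for CXCL11 they were SSTR2, TMEM229B, NUB1, C20orf118 and ZBP1 (0.956 to 0.969). CXCL9, which rests on few reads, was followed by ACTN2, VSIG10L, C3, GRIP2 and CACNA1I (0.937 to 0.966). Between the chemokines themselves r ran from 0.837 for CXCL9 with CXCL11 to 0.976 for CXCL10 with CCL5. These values describe libraries that share the same split between control and miR-137 and between cell lines, and with a pseudocount of 0.1 only 2 or 3 of each 5 genes stayed the same.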

How the data were processed

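The data are read counts per gene in 16 libraries of U251 and U343 cells. The authors aligned reads to hg18 with RMAP and deposited whole-number counts on 1 super-transcript per RefSeq gene, not normalized. The treatment of multiply mapped reads is not given in the sources used here. One symbol on 2 lines of the U251 tables was kept once, and a further U251 replicate named in the methods was not analysed here.

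Groups came from the labels. The main test was edgeR 4.0.16 (R 4.3.3, quasi-likelihood, TMM, filterByExpr) within each experiment, fitted on all genes and adjusted by Benjamini-Hochberg over them at 0.05, tested on simulated data. Interactions were fitted in the same way. The alternatives were DESeq2 1.42.0, upper-quartile normalization, no filter beyond 1 read, a minimum mean of 50 reads, the study's Fisher rule, one fit for all libraries of a cell line, a replicate block, and the omission of single libraries. Counting intervals used scipy 1.17.1. Sequenced reads are not independent molecules, so intervals and floors cover counting error only.

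The members and gene lists were chosen with earlier results of these data known. Named were the members, their receptors, up to 3 genes per list and experiment with the largest change past the threshold (at least 50 reads on average in the higher group, same direction in all 4 pairs), neighbours within 250 kb, and the 5 most similar genes per member. Some genes of the lists enter the counts and are not reported here singly.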

Additional observations from a re-analysis of the deposited data

Results flagged for a closer look

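With all libraries, no interaction test called a difference in the response to miR-137 between assays or cell lines for CXCL9, CXCL10, CXCL11 or CCL5, and with 2 libraries per group no library could be set against the spread of its own group. Among the other genes named, the response to miR-137 differed by an interaction test in the following cases (edgeR, adjusted p under 0.05). For CXCR7 in U251, the log2 change in RIPSeq minus that in RNASeq was 9.42 (standard error 1.00, adjusted p = 0.0402), a value that depends on how 0 reads are treated, and the adjusted p ran from 3.58e-05 to 0.302 over the alternatives. In RNASeq, the response in U343 minus that in U251 was 10.48 for CXCR7, which rose in U343 and had 0 reads with miR-137 in U251, 2.18 for CXCL14, which fell in both, 1.90 for CCL26, 1.14 for CCL2 and -1.29 for CX3CL1, with adjusted p from 0.000175 to 0.0386. In RIPSeq, the same difference was 7.54 for IRF7 (adjusted p = 0.0098), 4.50 for IL8 (adjusted p = 0.0367) and 1.47 for CCL2 (adjusted p = 0.0239). Over the alternatives the adjusted p stayed under 0.05 for CXCR7, CXCL14 and CCL26 in RNASeq and reached between 0.0508 and 0.273 for the others.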

How the results depend on the processing

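With each library left out, the number of chemokines called ranged from 0 to 4 in U343 RNASeq, where DESeq2 called 1. It ranged from 0 to 4 for RIPSeq against RNASeq in U343, from 0 to 3 for the difference between assays in U343 and between lines in RNASeq, and from 0 to 1 for that between lines in RIPSeq. The filter of at least 50 reads left 1 chemokine called in U251 RNASeq, since it removed the others from the test. Of the other counts of chemokines called, 106 stayed within 1.5 times the value given.

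The extremes in U343 RNASeq came without its miR-137 replicate 1 or 2, and that between lines in RIPSeq without U251 control replicate 2. Log2 changes of the chemokines turned sign only when a library was left out. In U343 RNASeq they ran from -1.73 to 7.24 for CXCL10, -3.56 to 3.98 for CXCL11 and -0.45 to 5.34 for CCL5. The difference between assays in U251 ran from -2.15 to 2.66 for CXCL10 and -3.06 to 0.42 for CXCL11, and in U343 from -3.28 to 3.78 for CXCL9. The difference between lines ran from -2.07 to 3.56 for CXCL9 in RNASeq, and in RIPSeq from -5.52 to 0.10 for CXCL10 and -1.02 to 0.15 for CXCL11. None of these results was called by edgeR with all libraries, and DESeq2 called CXCL10 in U343 RNASeq (6.28, adjusted p = 0.0403). With no filter beyond 1 read CXCL10 in U251 RIPSeq kept its size, 9.59, and missed the threshold (adjusted p = 0.0611 in edgeR).

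Replicate numbers pair nothing in the labels, and deviations of same-numbered libraries correlated by 0.0327 to 0.279 over the 2 pairs of an experiment. With a replicate block the log2 change of CXCL10 in U251 RIPSeq was 9.54 and that of CCL5 7.67, and in U343 RNASeq it moved CXCL10 from 6.26 to 3.68, CCL5 from 4.37 to 2.70 and CXCL11 from 3.01 to 1.06. The block moved no count of chemokines called. Log2 changes of the other named genes kept their sign under every setting, and 26 of 445 such values missed the threshold that the main value passed, 18 of them in U343 RNASeq without one of its controls. Counts over the lists moved by more than 1.5 times in 109 of 640 cases. Depth limits CXCL9 most, since it had 41 reads or fewer in every library.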
